A study of Mus musculus with 9 samples.

Results

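The BCL2 family genes described here were 10 genes chosen by symbol for their action at mitochondria, out of 55335 entries in each deposited expression table of 8-cell mouse embryos. They comprised 3 anti-apoptotic genes (*Mcl1*, *Bcl2l1* and *Bcl2l10*), 3 effector genes (*Bax*, *Bak1* and *Bok*) and 4 BH3-only genes (*Bcl2l11*, *Bbc3*, *Pmaip1* and *Bid*), and all 10 symbols were found in all 9 tables. The study injected siRNA into zygotes of ICR mice obtained by in vitro fertilisation, cultured them to the 8-cell stage and sequenced polyadenylated RNA after Smart-Seq2 amplification. Control embryos received a nontargeting siRNA, MFN1-KD embryos an siRNA against *Mfn1*, which encodes a GTPase of the outer mitochondrial membrane that fuses mitochondria, and H3.3-KD embryos siRNA against *H3f3a* and *H3f3b*, the genes of the histone variant H3.3. Each group had 3 libraries, each made from a pool that the sample labels give as 5 to 10 embryos and the methods of the study as 10. Every group had thus been injected and cultured in vitro, the mothers' age for these pools was not given in the sources used here, and a change in a pool cannot be told apart from a change in the share of embryos or cells that carry the transcript.

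BCL2 family proteins decide whether the outer mitochondrial membrane is opened in the intrinsic pathway of apoptosis. Effector proteins form pores through which cytochrome c leaves the mitochondrion, anti-apoptotic proteins hold the effectors and their activators, and BH3-only proteins activate effectors or occupy the anti-apoptotic proteins. Cytochrome c then assembles the apoptosome with APAF1, which activates caspases. In the preimplantation mouse embryo MCL1 is required, since embryos without it die around implantation. Several BH3-only genes are regulated by transcription, *Bbc3* (PUMA) and *Pmaip1* (NOXA) through p53 among others, so that their transcript levels are commonly read in stressed cells.

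On GRCm38 (GENCODE) *Mcl1* lies at chr3:95658788-95663176, *Bcl2l1* at chr2:152780668-152831728, *Bcl2l10* at chr9:75347758-75351632, *Bax* at chr7:45461697-45466898, *Bok* at chr1:93685660-93695764, *Bak1* at chr17:27019810-27029009, *Bcl2l11* at chr2:128126038-128162547, *Bbc3* at chr7:16308393-16318205 and *Bid* at chr6:120891930-120916853. Upstream sequences were printed for *Bbc3*, *Bcl2l1*, *Mcl1* and *Bax*, as the lead members of the anti-apoptotic and effector roles by level (*Mcl1* and *Bax*) and the pair with the largest log2 fold changes in H3.3-KD (*Bbc3* and *Bcl2l1*). They were taken from RefSeq promoter windows on GRCm38.p6, each 300 bases long and spanning a transcript start. Of the 10 members, 8 had a window in that table, with 13 windows in all. The members without one were *Bcl2l10* and *Pmaip1*. The 150 bases just before the start are given 5′ to 3′ on the strand of the gene, and none of them lies in an exon of the GENCODE annotation. The *Bbc3* stretch, which precedes a RefSeq start, lies inside the GENCODE span of that gene. Capitals mark the GC box GGGCGG and the E box CACGTG on either strand, with overlapping matches merged. The stretches are chr7:16309433-16309582 (plus strand) for the first of 3 *Bbc3* starts, chr2:152831729-152831878 (minus strand) for *Bcl2l1*, chr3:95658571-95658720 (plus strand) for *Mcl1* and chr7:45466899-45467048 (minus strand) for *Bax*.
Bbc3: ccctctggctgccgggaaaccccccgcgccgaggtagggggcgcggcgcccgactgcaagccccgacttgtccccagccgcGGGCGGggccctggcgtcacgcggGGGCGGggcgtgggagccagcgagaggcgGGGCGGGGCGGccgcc
Bcl2l1: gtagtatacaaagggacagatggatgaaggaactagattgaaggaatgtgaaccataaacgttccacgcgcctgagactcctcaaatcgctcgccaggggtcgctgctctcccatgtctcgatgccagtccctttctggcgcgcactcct
Mcl1: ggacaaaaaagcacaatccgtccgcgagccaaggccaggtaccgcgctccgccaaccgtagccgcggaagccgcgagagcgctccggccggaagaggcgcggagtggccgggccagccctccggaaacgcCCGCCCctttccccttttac
Bax: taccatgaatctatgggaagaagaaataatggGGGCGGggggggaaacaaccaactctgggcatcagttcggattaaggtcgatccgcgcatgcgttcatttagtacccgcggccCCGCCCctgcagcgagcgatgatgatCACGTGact

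The windows differed in composition. The 3 *Bbc3* windows had GC contents of 76.0%, 74.7% and 78.0%, above 97.1%, 96.1% and 98.2% of all 32851 windows in the table, and held 5, 4 and 7 GC boxes (the last 2 of these windows overlap). A GC box was present in 35.7% of all windows. The *Bcl2l11* windows had GC contents of 71.0% and 74.0%, above 92.2% and 95.6% of all windows, with 3 GC boxes each. The *Bid* window (63.3% GC) also held 3. None of the 3 *Bcl2l1* windows held a GC box, a CCAAT box (CCAAT, in 37.4% of all windows), an E box or a TATA box (TATAAA, in 13.6%) on either strand. The *Mcl1* window had 1 GC box. The *Bax* window had 3 GC boxes, 2 E boxes, a motif present in 7.2% of windows, and a match, at 1 place and on both strands, to the short unit that a full p53 response element holds as a pair, a unit that 8.4% of windows held. None of the other windows searched, which do not cover *Pmaip1* or *Bcl2l10*, matched that unit exactly. Only exact matches were sought, so a p53 site that departs from the unit at any base would have been missed. These are matches of letters, and binding at them was not measured here.

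Among the 10 members, the pair *Bax* and *Mcl1* had the highest levels in control embryos. Levels are given as FPKM, the fragments of a gene relative to its length and to the size of the library. Division by length allows a rough comparison between genes, but other differences between them, such as GC content, are not removed. *Bax* had 114 ± 14.9 FPKM (SD, n = 3) and *Mcl1* 78.9 ± 20.2, above 90.9% and 88.0% of the genes tested. Their ranges over libraries overlapped slightly, although *Bax* was above *Mcl1* within every control library. *Bcl2l11* followed with 20.6 ± 2.62 FPKM and *Bok* with 14.1 ± 1.02, and these did not overlap each other. *Bid* had 10.1 ± 3.23 FPKM and overlapped *Bok*. *Bcl2l1* (1.69 ± 1.01), *Pmaip1* (1.58 ± 0.811) and *Bcl2l10* (1.53 ± 0.711) overlapped one another and could not be ordered. *Bbc3* was lowest of the members with a value, at 0.233 ± 0.0451 FPKM, and *Bak1* was listed at 0 in each control library. Outside the members, the family genes *Bcl2l14* (118 ± 26.0 FPKM, overlapping *Bax*) and *Bad* (56.3 ± 7.33 FPKM) were also above *Bcl2l11* in control.

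**Figure D1:**
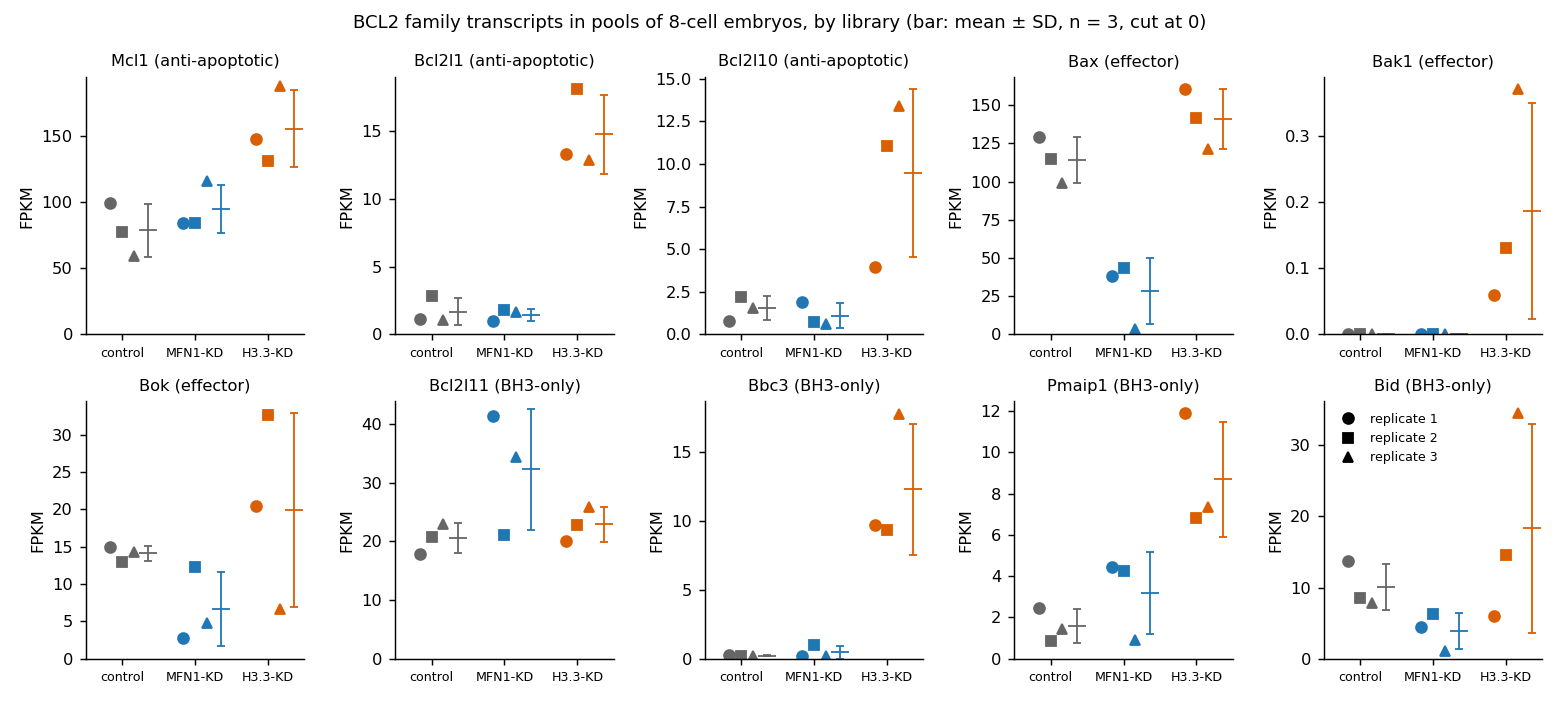
FPKM of each of the 10 genes (y axis, linear from 0, own scale per panel) in the 9 libraries by group (x axis), with symbols for the replicate number and a bar for mean ± SD (n = 3). In H3.3-KD the libraries of Mcl1, Bcl2l1, Bcl2l10, Bbc3 and Pmaip1 all lie above the control libraries, and in MFN1-KD those of Bax, Bok and Bid all lie below them.

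The question of the first comparison was which genes depend on H3.3 at the 8-cell stage. All 3 anti-apoptotic genes and the BH3-only genes *Bbc3* and *Pmaip1* were higher in H3.3-KD than in control embryos, whereas no effector was called in either direction. Of the 9 members that could be tested, 5 passed at a Benjamini-Hochberg adjusted p under 0.05 (limma on log2 of FPKM + 1), all 5 upward. Across all 13011 genes tested, 31.0% passed, 21.8% upward and 9.12% downward. The median log2 fold change of the 9 members was 0.99 and that of all genes 0.26. Relative to that shift of all genes, the log2 fold changes were 3.11 for *Bbc3*, 2.34 for *Bcl2l1*, 1.69 for *Bcl2l10*, 1.66 for *Pmaip1* and 0.73 for *Mcl1*. Above 2-fold with an unadjusted p under 0.05, the threshold of the study, 4 members were higher and 0 lower, against 23.9% and 9.39% of all genes (33.3% in both directions). The H3.3-KD libraries lay wholly above the controls for 5 of the 9 members and wholly below for 0, against 34.5% and 18.9% of all genes (53.4% in all). Leaving out control replicate 2 reduced the members called to 3, the calls of *Mcl1* and *Pmaip1* being lost.

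*Bbc3*, which encodes PUMA, a BH3-only protein that binds all anti-apoptotic members, showed the largest difference of the members tested. Its level was 0.28, 0.23 and 0.19 FPKM in the control libraries and 9.73, 9.36 and 17.76 FPKM in the H3.3-KD libraries. Every H3.3-KD library was far above every control library. The log2 fold change was 3.37 ± 0.36 (SE; 95% interval 2.57 to 4.18; adjusted p = 0.00020). On this scale the added 1 FPKM compresses the change of so low a gene, and with 0.1 FPKM added it was 5.16. *Bbc3* passed the filter on low values only through the H3.3-KD libraries, so that only a rise could be seen there.

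*Bcl2l1*, which encodes the anti-apoptotic protein BCL-XL, had 1.15, 2.86 and 1.07 FPKM in control and 13.33, 18.14 and 12.89 FPKM in H3.3-KD libraries. The ranges were well apart. Its log2 fold change was 2.60 ± 0.36 (SE; adjusted p = 0.00061), with an interval from 1.81 to 3.39. *Bcl2l10*, an anti-apoptotic gene known from oocytes and early embryos, had 0.80, 2.22 and 1.58 FPKM in control libraries, and 3.98, 11.06 and 13.42 FPKM in H3.3-KD. All H3.3-KD libraries were higher, the first by the least, and the log2 fold change was 1.95 ± 0.46 (SE; adjusted p = 0.0099). *Mcl1*, the most abundant anti-apoptotic transcript, rose from 99.74, 77.57 and 59.42 FPKM to 147.82, 131.49 and 188.49 FPKM. The log2 fold change was 0.99 ± 0.26 (SE; interval 0.41 to 1.56; adjusted p = 0.016). This call was lost after median-ratio scaling of the libraries (0.65, adjusted p = 0.11), after upper-quartile scaling (0.56, adjusted p = 0.14) and after correction for GC content and length within libraries (0.67, adjusted p = 0.062). It was also lost without control replicate 2 (adjusted p = 0.054), control replicate 3 (0.073) or H3.3-KD replicate 3 (0.055).

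*Pmaip1*, which encodes NOXA, a BH3-only protein that binds mainly MCL1, had 2.46, 0.86 and 1.43 FPKM in control and 11.90, 6.83 and 7.33 FPKM in H3.3-KD. All H3.3-KD libraries were higher, and the log2 fold change was 1.92 ± 0.47 (SE; adjusted p = 0.011). Without control replicate 2 the adjusted p was 0.052. The other BH3-only genes did not pass. *Bcl2l11*, which encodes the activator BIM, had 17.81, 20.81 and 23.03 FPKM in control and 19.97, 22.83 and 25.83 FPKM in H3.3-KD, ranges that overlap, and its log2 fold change of 0.15 (interval -0.50 to 0.79) changed sign under both other scalings and under the GC and length correction. *Bid*, whose product is activated by cleavage and links death receptors to mitochondria, varied widely in H3.3-KD, with 5.95, 14.52 and 34.45 FPKM against 13.78, 8.60 and 7.85 FPKM in control. The first H3.3-KD library was below all controls and the third far above them, and the log2 fold change was 0.54 (interval -0.82 to 1.89; adjusted p = 0.54).

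Among the effectors, *Bax* had 128.98, 114.49 and 99.22 FPKM in control and 160.20, 141.33 and 121.12 FPKM in H3.3-KD. The ranges overlapped, and the log2 fold change was 0.30 with an interval from -1.32 to 1.92, too wide to say that the level stayed the same. All 3 groups share 1 estimate of the spread, so the wide spread of *Bax* in MFN1-KD (3.41 to 43.40 FPKM) enters this interval. The adjusted p (limma) was 0.79, and 0.26 with only the 6 libraries compared or without MFN1-KD replicate 3, so *Bax* was not called there either. *Bok*, an effector found largely at the endoplasmic reticulum, had 15.01, 13.00 and 14.34 FPKM in control and 20.41, 32.64 and 6.65 FPKM in H3.3-KD, on both sides of the controls, with a log2 fold change of 0.23 (interval -1.03 to 1.48). The signs of *Bax* and *Bok* turned under both other scalings and under the GC and length correction. *Bak1* was listed at 0 in all control and MFN1-KD libraries and at 0.06, 0.13 and 0.37 FPKM in the H3.3-KD libraries, too low to be tested. It was the only member that did not pass the filter of a mean of 1 FPKM over the 9 libraries.

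The GC content of the transcripts moved with the change in H3.3-KD, and the members spanned its range. When all genes with a known GC content were divided into 10 bins, the bin medians in H3.3-KD went on the log2 scale from -0.29 in the bin lowest in GC to 1.10 in the highest, and in MFN1-KD from 0.24 to -0.24. *Bbc3*, at 65.2% GC, lay in the highest bin and was above 96.2% of the genes there. *Bcl2l1*, at 55.9%, was above 95.3% of the genes of its bin, which had a median of 0.85. *Bcl2l10* (50.7%) and *Pmaip1* (42.1%) were above 94.0% and 98.2% of theirs, with bin medians of 0.31 and -0.10. *Mcl1* (48.7%) was above 77.1% of its bin. *Bax* (63.5%) and *Bok* (61.0%) shared the highest bin with *Bbc3*, and lay above only 27.9% and 25.5% of it. With the correction for GC content and length, the log2 fold changes of *Bbc3* (2.12, adjusted p = 0.0026), *Bcl2l1* (1.85, 0.0047), *Bcl2l10* (2.08, 0.0085) and *Pmaip1* (2.08, 0.013) still passed.

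**Figure D2:**
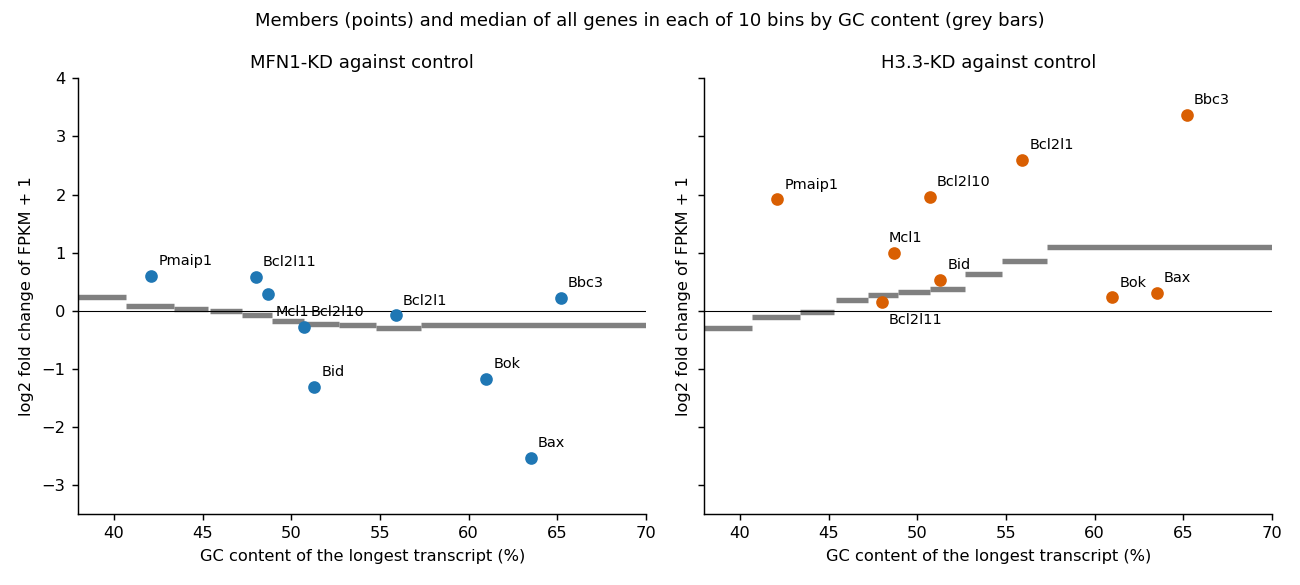
Log2 fold change of FPKM + 1 (y axis) of the 9 tested members (points) against the GC content of their longest transcript in percent (x axis), with the median of all genes in each of 10 GC bins as grey bars. In H3.3-KD, Bbc3, Bcl2l1, Bcl2l10 and Pmaip1 lie above the median of their bin by a wide margin, while Bax and Bok lie below that of the highest bin (1.10). In MFN1-KD, Bax is far below its bin (-0.24). The x axis is cut at both ends.

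The second comparison asked what depends on MFN1. In MFN1-KD embryos *Bax*, *Bok* and *Bid* were below control in every library, *Bax* by the most, but no member passed the adjusted threshold. The count was 0 of 9 in the limma test across all genes, of which 3.35% passed (1.15% upward, 2.20% downward), while 1 of 9 had an unadjusted p under 0.05. At the threshold of the study 1 member, *Bax*, was lower and 0 were higher, against 9.05% and 5.02% of all genes. The MFN1-KD libraries lay wholly below the controls for *Bax*, *Bok* and *Bid*, 3 of 9 members, and for 16.8% of all genes, and wholly above them for 0 members and 11.4% of genes (28.2% in all). The median log2 fold change was -0.08 over the members and -0.08 over all genes.

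*Bax* had 37.92, 43.40 and 3.41 FPKM in the MFN1-KD libraries, against 99.22 FPKM in the lowest control library. Replicate 3 was more than 10 times below the other two. The log2 fold change was -2.54 ± 0.72 (SE; interval -4.16 to -0.92; unadjusted p = 0.0060, adjusted p = 0.084). Over all alternatives the adjusted p ran from 0.019 to 0.24. It passed without MFN1-KD replicate 3, where the fold change was smaller (-1.46, adjusted p = 0.021), without MFN1-KD replicate 2 (-3.13, adjusted p = 0.044) and with library weights (-1.83, adjusted p = 0.019). MFN1-KD replicate 3 stood apart from the rest, with 15577 genes above 0 against 19250 and 20842 in the other MFN1-KD libraries and 21643 to 22507 in control, and it received the lowest library weight (0.22). The MFN1-KD libraries other than this one were also below every control library for *Bax*.

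*Bok* was at 2.81, 12.24 and 4.83 FPKM in MFN1-KD. All were below the lowest control of 13.00 FPKM, the second only narrowly, and the log2 fold change of -1.18 ± 0.57 (SE; adjusted p = 0.24) did not pass. *Bid* was at 4.40, 6.22 and 1.12 FPKM, below the lowest control of 7.85 FPKM, and its log2 fold change was -1.31 ± 0.61 (SE; adjusted p = 0.23). Without MFN1-KD replicate 3 these were -1.09 for *Bok* and -0.79 for *Bid*. *Bcl2l11* had 41.40, 21.06 and 34.27 FPKM, of which the second lay within the control range, and a log2 fold change of 0.58 (adjusted p = 0.26). Exact permutation tests (two-sided) on *Bax*, *Bok* and *Bid* gave p = 0.1 each, the smallest value that 3 against 3 libraries allow.

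No anti-apoptotic gene passed in MFN1-KD. *Mcl1* had 84.16, 84.74 and 116.23 FPKM (log2 fold change 0.28, interval -0.29 to 0.85). *Bcl2l1* had 0.97, 1.79 and 1.63 FPKM (-0.08, interval -0.87 to 0.70) and *Bcl2l10* 1.93, 0.74 and 0.63 FPKM (-0.28, interval -1.31 to 0.74), and the groups overlapped for each of the 3. The signs of *Bcl2l1* and *Bcl2l10* turned after the GC and length correction. *Pmaip1* had 4.43, 4.23 and 0.90 FPKM, the third within the control range (log2 fold change 0.60, adjusted p = 0.48). *Bbc3* stayed low, at 0.20, 1.03 and 0.22 FPKM (0.22, interval -0.58 to 1.03).

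**Figure D3:**
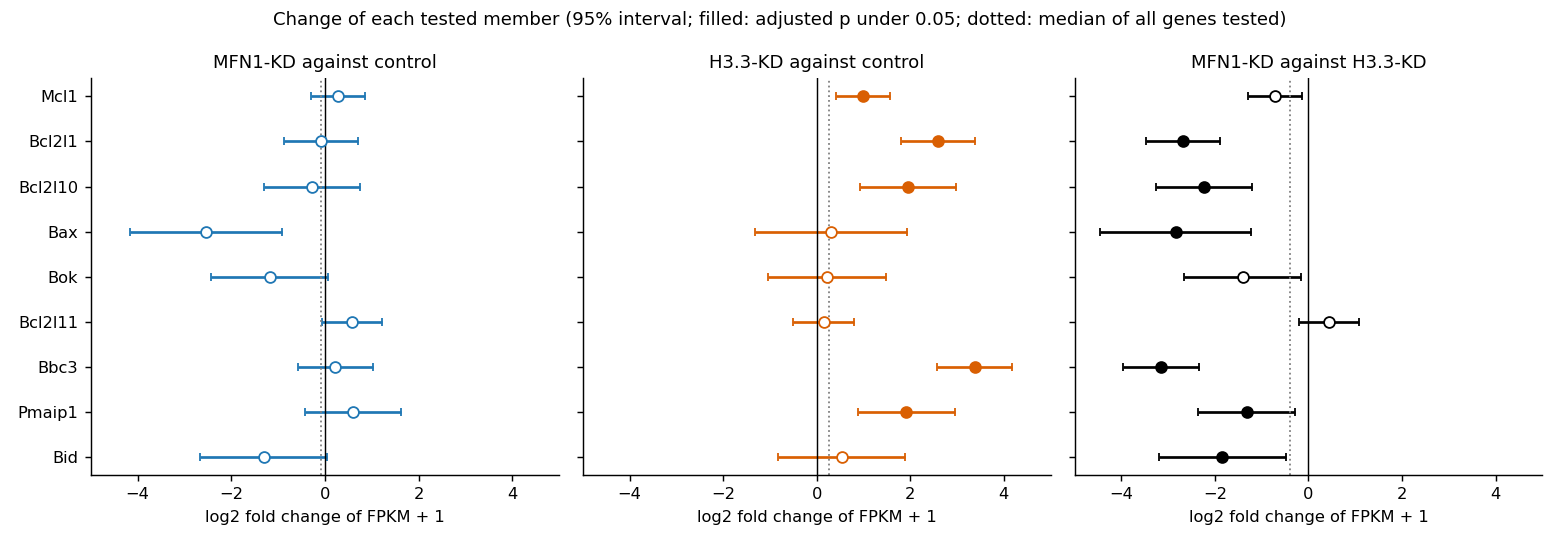
Log2 fold change of FPKM + 1 (x axis) with its 95% interval for the 9 tested members (y axis) in 3 comparisons. Filled points passed an adjusted p under 0.05, and the dotted line is the median of all genes tested. In the left panel no point is filled and Bax lies at -2.54, in the middle 5 points are filled to the right, and in the right 6 are filled to the left.

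Both knockdowns were compared with the same 3 control libraries, so the difference between them was tested directly, MFN1-KD against H3.3-KD. Of the 9 members, 6 were lower in MFN1-KD and 0 higher, against 27.6% and 11.0% of all genes and 38.6% in both directions. At the threshold of the study 7 members were lower, against 29.1% of all genes (40.1% in both directions). The MFN1-KD libraries lay wholly below those of H3.3-KD for 6 members and wholly above for 0, against 33.1% and 14.8% of all genes (47.9% in all). The median log2 difference was -1.84 over the members and -0.39 over all genes. Those called were *Bbc3* (-3.15 ± 0.36 SE, adjusted p = 0.00017), *Bax* (-2.84 ± 0.72, adjusted p = 0.012), *Bcl2l1* (-2.68 ± 0.36, adjusted p = 0.00035), *Bcl2l10* (-2.23 ± 0.46, adjusted p = 0.0039), *Bid* (-1.84 ± 0.61, adjusted p = 0.036) and *Pmaip1* (-1.32 ± 0.47, adjusted p = 0.045). Libraries of the 2 knockdowns overlapped for *Bid*, and for *Bok* and *Bcl2l11*, which were not called. *Mcl1* was lower in every MFN1-KD than in any H3.3-KD library, and narrowly missed the threshold (-0.71, adjusted p = 0.052). Over the alternatives its log2 difference ran from -0.86 to -0.22 and its adjusted p (limma) from 0.028 to 0.53. *Bbc3* passed the filter on low values only through the H3.3-KD libraries, so that for it only a lower level in MFN1-KD could be seen here. For *Bbc3*, *Bcl2l1* and *Bcl2l10* the call held under each alternative that tested them. That of *Bax* was lost with the GC and length correction (-1.69, adjusted p = 0.073). The call of *Bid* was lost in 14 alternatives and that of *Pmaip1* in 13, both other scalings among them, with adjusted p values up to 0.137 for *Bid* and 0.142 for *Pmaip1*.

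The balance between the roles differed between groups. The ratio of *Bax* to *Mcl1* FPKM was 1.29, 1.48 and 1.67 in control, 1.08, 1.07 and 0.643 in H3.3-KD and 0.451, 0.512 and 0.0293 in MFN1-KD. The 3 groups did not overlap, with control highest and MFN1-KD lowest. A scaling factor common to a library cancels in the ratio, as both genes are read in the same library. An effect of GC content does not cancel, since *Bax* (63.5% GC) and *Mcl1* (48.7%) differ in it, and the ratio was not corrected for it. The anti-apoptotic genes held 29.8% to 36.3% of the summed FPKM of the 10 members in control, 41.4% to 50.2% in H3.3-KD and 48.9% to 72.6% in MFN1-KD. The effectors held 51.4% to 54.6% in control, 29.9% to 45.9% in H3.3-KD and 5.05% to 31.7% in MFN1-KD. The BH3-only genes held 12.3% to 15.6% in control, 12.1% to 19.9% in H3.3-KD and 18.5% to 28.3% in MFN1-KD. The ratio of BH3-only to anti-apoptotic FPKM overlapped between the groups. It was 0.338 to 0.524 in control, 0.288 to 0.397 in H3.3-KD and 0.308 to 0.579 in MFN1-KD. The summed level of the members ran from 208 to 280 FPKM in control, from 163 to 178 FPKM in MFN1-KD and from 388 to 428 FPKM in H3.3-KD.

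**Figure D4:**
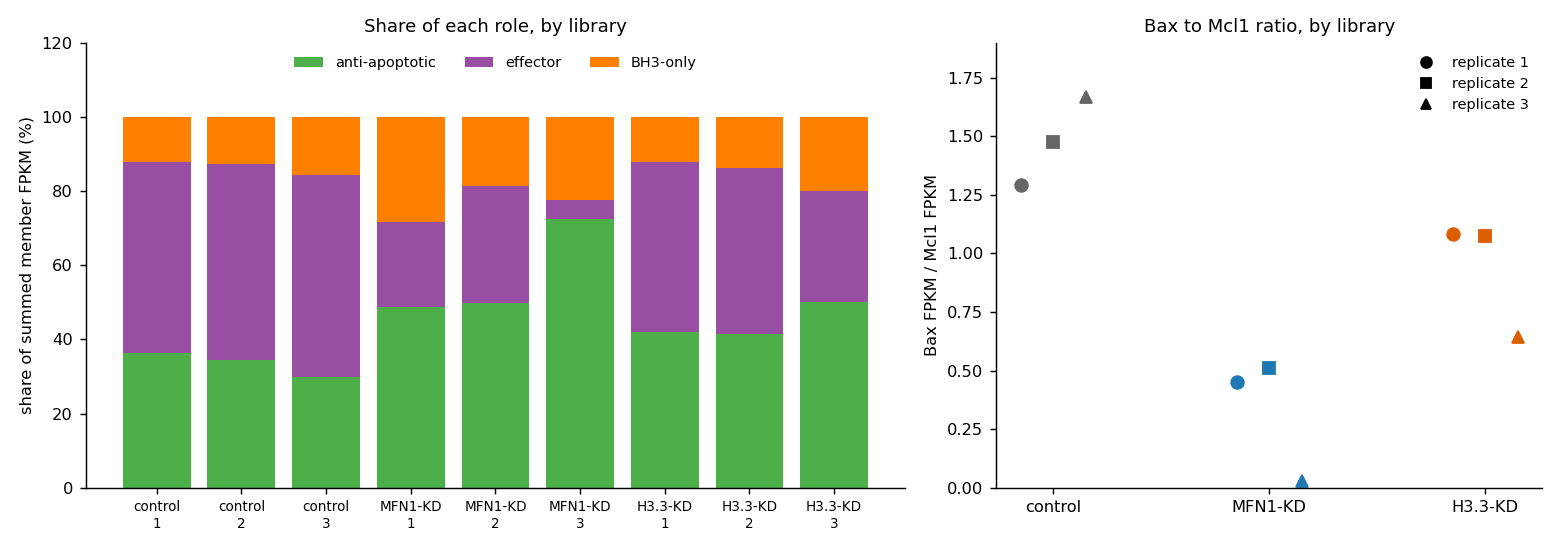
Left, share in percent of the summed FPKM of the 10 members held by each role (stacked bars, y axis) in each library (x axis). Right, ratio of Bax to Mcl1 FPKM (y axis, linear from 0) per library by group (x axis). Effectors hold at least 51.4% of the sum in each control library and at most 45.9% in any knockdown library, and the Bax to Mcl1 ratio is 1.29 to 1.67 in control and at most 0.512 in MFN1-KD.

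Within a role the makeup also differed. *Mcl1* supplied 93.9% to 98.1% of the anti-apoptotic FPKM in control and 96.7% to 98.1% in MFN1-KD, but 81.8% to 89.5% in H3.3-KD, where *Bcl2l1* and *Bcl2l10* supplied the rest. *Bbc3* supplied 0.585% to 0.816% of the BH3-only FPKM in control and 17.5% to 20.8% in H3.3-KD. *Bcl2l11* supplied 51.9% to 70.9% in control, 30.3% to 42.6% in H3.3-KD and 64.7% to 93.9% in MFN1-KD. Among the BH3-only members it was the largest in every library but H3.3-KD replicate 3, where *Bid* was larger. These shares cover the members only and leave out *Bad*, another BH3-only gene, which had 51.41 to 64.71 FPKM in control. *Bad* was above *Bcl2l11* in every control and H3.3-KD library and, narrowly, in MFN1-KD replicate 2.

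Other apoptosis genes were read from 5 lists with 46 genes, of which 34 could be tested. In H3.3-KD 10 of the 34 were higher and 6 lower, against 21.8% and 9.12% of all genes, and their median log2 fold change was 0.53 against 0.26 for all genes. The split turned with the scaling, to 6 higher and 7 lower after median-ratio scaling and to 4 higher and 8 lower after upper-quartile scaling. The count of 16 fell to 6 without control replicate 2, to 7 without control replicate 3 and to 10 without H3.3-KD replicate 3. In MFN1-KD 0 were higher and 2 lower, against 1.15% and 2.20% of all genes, with a median log2 fold change of 0.06, and this count was 0 when any 1 of the 3 control libraries was left out, and 1 without MFN1-KD replicate 1 or replicate 3. Between the knockdowns 6 were higher and 14 lower in MFN1-KD, against 11.0% and 27.6% of all genes, or 8 and 10 after median-ratio scaling and 9 and 8 after upper-quartile scaling. Those higher in MFN1-KD were *Cycs* (2.27), *Birc6* (2.23), *Bcl2l15* (1.85), *Usp9x* (1.74), *Apaf1* (1.39) and *Huwe1* (1.09), each a log2 difference. The widest negative log2 differences were those of *Vdac1* (-2.54), *Htra2* (-2.51), *Endog* (-2.48) and *Trp53* (-2.17), and among the others *Trib3*, *Bcl2l13*, *Atf4*, *Diablo*, *Bad*, *Mdm2*, *Bcl2l2*, *Bcl2l14* and *Fadd* were called at -1.78 to -0.92.

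Of the other BCL2 family genes, 6 of 13 were tested. *Bcl2* itself was at 0.01 to 0.03 FPKM in control and at most 0.96 FPKM in any library, and *Bcl2a1a*, *Bcl2a1b*, *Bcl2a1d*, *Bik*, *Bmf* and *Hrk* were likewise below the filter. In H3.3-KD, *Bcl2l13*, which encodes an outer membrane protein that also acts as a mitophagy receptor, was higher (30.74, 29.72 and 49.37 FPKM against 13.02, 8.34 and 6.40; log2 fold change 1.89, adjusted p = 0.0034), as was *Bcl2l14* (0.77, adjusted p = 0.027). *Bid* and *Bcl2l13* lie on opposite strands with exons that overlap, and the strand setting of the counting was not given, so that reads of the 2 genes may be shared. *Bad*, which encodes a BH3-only protein that binds BCL-XL, was lower in MFN1-KD, at 23.09, 21.81 and 9.23 FPKM against 52.74, 51.41 and 64.71 in control (-1.68 ± 0.33 SE, adjusted p = 0.036).

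In H3.3-KD, 3 of the 7 apoptosome and caspase genes tested rose and 2 fell, beside the 21.8% and 9.12% of all genes. *Cycs*, the gene of cytochrome c, fell by 1.57 on the log2 scale, from 152.88, 136.10 and 152.94 FPKM to 65.86, 49.04 and 36.39 FPKM (adjusted p = 0.0018). The caspase gene *Casp6* also fell (-1.50, adjusted p = 0.016). *Fadd*, an adaptor of death receptors (1.05, adjusted p = 0.023), and *Casp2* (1.08, adjusted p = 0.031) rose at low levels. In MFN1-KD none of the 7 passed, against 3.35% of all genes. The smallest adjusted p values there were those of *Casp6* (-1.54, adjusted p = 0.062), *Apaf1* (1.33, adjusted p = 0.11) and *Cycs* (0.70, adjusted p = 0.15). *Cycs* differed between the knockdowns, being higher in MFN1-KD (log2 difference 2.27, adjusted p = 0.00017).

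All 7 inhibitors of apoptosis and their antagonists were tested. *Birc5*, the gene of survivin, fell in H3.3-KD from 448.14, 530.62 and 604.87 FPKM to 261.17, 274.00 and 339.20 FPKM (-0.85, adjusted p = 0.0090), and *Birc6* fell (-1.22, adjusted p = 0.012). *Htra2*, the gene of a mitochondrial protease that antagonises inhibitors of apoptosis, rose (1.94, adjusted p = 0.037). *Diablo*, the gene of another such antagonist released from mitochondria, was lower in MFN1-KD, with 46.02, 41.81 and 42.35 FPKM against 77.45, 87.98 and 86.00 in control (-0.93 ± 0.20 SE, adjusted p = 0.040). *Birc5* was at 291.11, 340.45 and 270.21 FPKM in MFN1-KD, below every control library, with an adjusted p of 0.055.

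Of 6 mitochondrial partners, *Endog* and *Vdac1* rose and *Mtch2* fell in H3.3-KD, beside the 21.8% and 9.12% of all genes. *Endog*, the gene of a mitochondrial nuclease, went from 20.53, 42.80 and 29.34 FPKM to 237.55, 226.85 and 271.38 FPKM (3.01, adjusted p = 0.00085). *Vdac1*, the gene of a channel of the outer membrane, went from 36.57, 32.25 and 22.20 FPKM to 167.35, 121.11 and 133.17 FPKM (2.19, adjusted p = 0.00057). *Mtch2*, whose product receives BID at the outer membrane, fell by 0.94 on the log2 scale (adjusted p = 0.022). None of the 6 passed in MFN1-KD, where 3.35% of all genes did.

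Of 10 regulators of the members, 8 were tested. In H3.3-KD 2 of these were higher and 1 lower, beside the 21.8% and 9.12% of all genes. In MFN1-KD 0 passed, against 3.35% of all genes. In H3.3-KD *Mdm2*, which encodes the ubiquitin ligase of p53 and is itself a p53 target, rose (1.34, adjusted p = 0.021), and so did *Trib3*, a target of ATF4 and CHOP (1.65, adjusted p = 0.025). *Usp9x*, whose product can remove ubiquitin from MCL1, fell (-1.03, adjusted p = 0.014). *Trp53*, the gene of p53, had 27.59, 8.15 and 18.06 FPKM in H3.3-KD against 9.19, 9.31 and 8.63 in control, with 1 library below the controls (0.77, adjusted p = 0.35). In MFN1-KD it had 1.52, 9.02 and 1.16 FPKM (-1.40, adjusted p = 0.185), the second within the control range. The direct difference between the knockdowns passed for *Trp53* (-2.17, adjusted p = 0.015), although their libraries overlapped. Smaller adjusted p values in MFN1-KD (limma) were those of *Atf4* (-0.69, adjusted p = 0.12) and *Usp9x* (0.71, adjusted p = 0.15). *Atf4* was below and *Usp9x* above control in every MFN1-KD library, and neither passed.

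**Figure D5:**
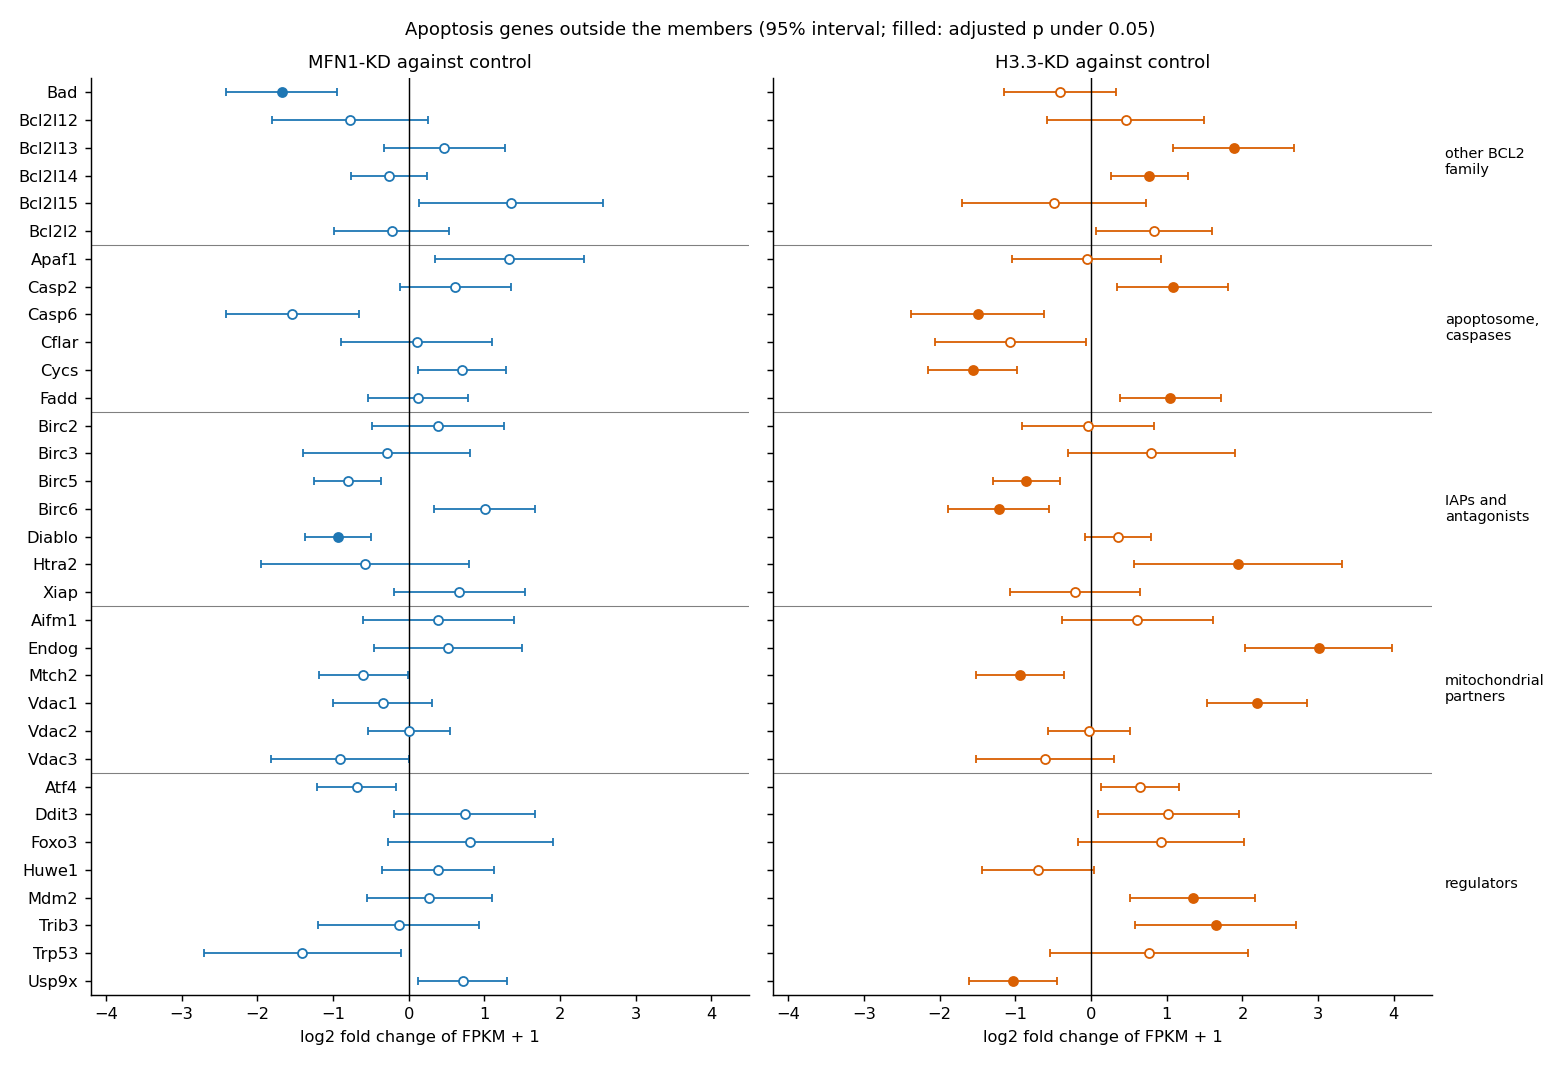
Log2 fold change of FPKM + 1 (x axis) with its 95% interval for tested genes of the 5 other lists (y axis, lists separated by lines), in MFN1-KD and H3.3-KD against control. Filled points passed an adjusted p under 0.05. In the MFN1-KD panel these are Bad and Diablo, and in the H3.3-KD panel Endog (3.01) lies farthest to the right.

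Over the 9 libraries, the genes most like the leading member of each role were sought among 5254 well expressed genes (mean FPKM 10 or more, above 0 in every library). This is a description, since libraries of a group share their treatment. Closest to *Bax* was *Stoml2*, the gene of a protein of the inner mitochondrial membrane (Pearson r = 0.998), with means of 118, 33.2 and 144 FPKM in control, MFN1-KD and H3.3-KD. *Cuta* and *Rogdi* followed (r = 0.990 each). Among the closest to *Mcl1* were *Kansl3* (r = 0.994) and *Rnf168* (0.983). For *Bcl2l11* the likeness was weaker, with *Gm11934* (0.886), *Gm20274* (0.864) and *Polg2* (0.849).

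The libraries were checked against their labels. *Mfn1* was at 9.54, 4.40 and 1.15 FPKM in MFN1-KD against 22.55 to 51.57 in control, and *H3f3a* and *H3f3b* were at 117 to 311 FPKM in H3.3-KD against 1594 to 3166 in control. Each of the 11 markers of the 8-cell embryo was above 0 in some library of every group. *Sox2* (at most 0.10 FPKM) and *Cdx2* (at most 0.09 FPKM) were barely above 0 in control, as was *Cdx2* in MFN1-KD (at most 0.06 FPKM). *Pou5f1* was at 5.10 to 8.90 FPKM in control and 63.06 to 392.19 FPKM in H3.3-KD. In MFN1-KD it was at 3.68, 2.74 and 0.30 FPKM, below every control library. Of the 10 markers tested 7 passed in H3.3-KD, 5 higher and 2 lower, against 21.8% and 9.12% of all genes. *Cdx2*, among those higher, passed the filter on low values only through the H3.3-KD libraries, so that only a rise could be seen. In MFN1-KD 0 passed, against 3.35% of all genes. Its libraries lay wholly above control for 3 markers and wholly below for 2 (*Pou5f1* and *Krt18*), against 11.4% and 16.8% of all genes. The summed cumulus and granulosa markers reached at most 1.53 FPKM in any library, with *Inhba*, *Fshr* and *Lhcgr* at 0 throughout, the sperm markers at most 2.93 FPKM and the oocyte markers 24.4 to 49.5 FPKM. Of the blood markers, *Ptprc* was at most 0.38 FPKM, while *Hba-a1* was at 66.2 to 77.7 FPKM in control, 18.2 to 72.4 FPKM in MFN1-KD and 8.33 to 14.6 FPKM in H3.3-KD. The number of genes above 0 was 23655 to 24820 in H3.3-KD, more than in any control library. Whether these shifts have a part in the changes of the members was not tested.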

How the data were processed

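RNA-seq libraries of pooled 8-cell embryos (Smart-Seq2, oligo-dT, paired-end) were trimmed by the authors with cutadapt 1.16 and aligned to mm10 with STAR, per the labels and the methods of the study. The authors deposited FPKM per gene, rounded to 2 decimals, one table per library; the program, annotation and strand setting behind them were not given in the sources used here. Read counts could not be recovered, so depth is unknown and no interval for counting error is given.

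Log2(FPKM + 1) was fitted with limma 3.58.1 (R 4.3.3; trend and robust) on all 9 libraries for the 13011 genes whose mean reached 1 FPKM, with Benjamini-Hochberg adjustment over all genes tested and called at 0.05. The fit was tested on simulated data. Entries that repeat a symbol (109) were kept apart. Fold changes understate the change of low genes. In H3.3-KD the median of all genes was 0.26, which median-ratio scaling set to 0.00.

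Alternatives were 2 other scalings, 2 filters, a pseudocount of 0.1, only the 6 libraries compared, a replicate block, each library left out, removal of GC and length trends (98.15% of genes had both, all 9 tested members included; 5 degrees of freedom) and library weights. Positions, GC content and length came from GENCODE on GRCm38, promoters from RefSeq. All members were described, of other genes each one called and at most the 3 with the smallest p per list, and for the leading member of each role the 3 most similar genes. Members and lists were chosen with earlier results of these data known. A plan to print protein sequences was not carried out. Some genes that enter these counts are not reported here by name. Labels do not say whether replicates were separate cultures, so p-values measure the spread between these libraries. *Bax* shares exons with *Gm45808* and *Bak1* lies over *Ggnbp1*; reads there may have been shared.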

Additional observations from a re-analysis of the deposited data

Results flagged for a closer look

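A direct contrast of MFN1-KD with H3.3-KD, in which the shared controls cancel, called 6 of the 9 members tested, all lower in MFN1-KD, against 27.6% of all genes lower and 38.6% in both directions. The log2 differences, MFN1-KD minus H3.3-KD, were -3.15 for *Bbc3*, -2.68 for *Bcl2l1*, -2.23 for *Bcl2l10*, -2.84 for *Bax*, -1.84 for *Bid* and -1.32 for *Pmaip1*, each with an adjusted p under the threshold (limma). The call of *Bid* was lost in 14 alternatives, that of *Pmaip1* in 13 and that of *Bax* with the GC and length correction. For *Bbc3*, *Bcl2l1*, *Bcl2l10* and *Pmaip1* the H3.3-KD libraries stood above both other groups. *Bbc3* passed the filter only through the H3.3-KD libraries, so that it could be called in this direction only. For *Bax* the MFN1-KD libraries stood below both other groups. For *Bid* neither knockdown passed against control, and the libraries of the 2 knockdowns overlapped.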

How the results depend on the processing

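Of the comparisons of single members under an alternative, 412 kept direction and side of the threshold, 11 newly passed, 35 no longer passed and 16 changed sign. Of the counts of called genes, 82 stayed within 1.5 times and 26 did not.

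In MFN1-KD against control, the members called went from 0 to 1 (*Bax*) with library weights and were 0 to 1 when a library was left out. The other apoptosis genes called went from 2 to 0 without a filter, with only the 6 libraries compared and with the GC and length trend removed, to 4 at a mean of at least 10 FPKM, to 7 with library weights, and ran from 0 to 3 when a library was left out. With the GC and length trend removed, *Bcl2l1* turned to 0.0909 and *Bcl2l10* to 0.0817; when a library was left out, *Bcl2l1* ran from -0.24 to 0.21 and *Bbc3* from -0.027 to 0.35.

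In H3.3-KD against control, the members called went from 5 to 1 at a mean of at least 10 FPKM, where *Bbc3*, *Bcl2l1*, *Bcl2l10* and *Pmaip1* are not tested, and ran from 3 to 5 when a library was left out. The other genes called went from 16 to 8 without a filter and to 10 with the GC and length trend removed, and ran from 6 to 18 when a library was left out. After median-ratio scaling, upper-quartile scaling and GC and length correction, *Bax* turned to -0.0355, -0.13 and -0.51, *Bok* to -0.0873, -0.17 and -0.56, and *Bcl2l11* to -0.17, -0.26 and -0.0065. Left-out libraries gave -0.24 to 0.83 for *Bok* and -0.0549 to 1.12 for *Bid*.

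In MFN1-KD against H3.3-KD, the members called went from 6 to 3 at a mean of at least 10 FPKM, and the other genes called from 20 to 13 without a filter and to 7 with the GC and length trend removed. After upper-quartile scaling *Bcl2l11* was called higher in MFN1-KD (0.90, adjusted p = 0.049). The cause was not tested, apart from the fewer genes tested at the higher filter.

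Same-numbered libraries deviated together weakly at most (r from -0.05 to 0.16), so the numbers were not taken as pairs. With a replicate block the members called were 0 in MFN1-KD, 5 in H3.3-KD and 5 in the direct comparison (*Bid* was lost, adjusted p = 0.055), and the other genes called were 0, 16 and 18.

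Depth is unknown for FPKM, so nothing can be said about *Bak1*, or about *Bbc3* in control, beyond the values listed.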
